A study of Rattus norvegicus with 56 samples.

Results

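The let-7 family is made up here of 9 mature microRNAs, let-7a-5p, let-7b-5p, let-7c-5p, let-7d-5p, let-7e-5p, let-7f-5p, let-7g-5p, let-7i-5p and miR-98-5p. The members were taken by their names, and all 9 were listed in each of the 3 sample types, among 682 microRNAs listed in all. MicroRNAs were sequenced in 21 samples of fetal rat myocardium, 21 of amniotic fluid and 14 of maternal serum, all taken on embryonic day 19 from Sprague-Dawley rats. Dams of the NC group were given distilled water by oral gavage, and dams of the other groups were given dimethadione (DMO), a compound that causes heart malformations in the fetus. The VSD group was fetuses of DMO dams with a ventricular septal defect and no malformed major vessels, and the non-VSD group was fetuses of DMO dams with an intact septum, so both had been exposed to DMO. Each group of a sample type held 7 samples, and serum, which came from the dams, had no non-VSD group. The labels do not name the dam of a fetus, so that littermates cannot be told from fetuses of separate dams, and p-values measure the spread between these samples.

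A microRNA guides an Argonaute protein to messenger RNAs, mainly through its seed, the bases near its 5′ end, and lowers their translation and stability. The let-7 family is conserved across animals and is known for accumulating as cells stop dividing and differentiate, and for repressing growth genes such as Hmga2, Lin28 and the Ras genes. LIN28, a protein of embryonic cells, blocks the maturation of most let-7 precursors, and in the heart the family rises around birth and in the adult.

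The mature sequences are shown because the members differ at very few bases, which bears on how well their counts can be told apart. They were taken from RefSeq, and the seed, bases 2 to 8, is in capitals.

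let-7a-5p: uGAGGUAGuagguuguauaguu
let-7b-5p: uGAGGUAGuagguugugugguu
let-7c-5p: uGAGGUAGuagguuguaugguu
let-7d-5p: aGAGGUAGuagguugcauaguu
let-7e-5p: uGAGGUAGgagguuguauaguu
let-7f-5p: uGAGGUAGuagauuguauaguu
let-7g-5p: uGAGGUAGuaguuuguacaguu
let-7i-5p: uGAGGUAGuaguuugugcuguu
miR-98-5p: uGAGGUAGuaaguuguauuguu

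All 9 were 22 bases long and carried a single shared seed, GAGGUAG, and no other of the 693 rat mature microRNAs in the RefSeq table had it. Positions are counted from 1 at the 5′ end, with the base of let-7a-5p first. The closest relatives of let-7a-5p were let-7c-5p (A19G), let-7e-5p (U9G) and let-7f-5p (G12A), each a single base away. From let-7a-5p, let-7b-5p differed at A17G and A19G, let-7d-5p at U1A and U16C, let-7g-5p at G12U and U18C, and miR-98-5p at G11A and A19U. let-7i-5p differed most from let-7a-5p, at G12U, A17G, U18C and A19U. The step from let-7b-5p to let-7c-5p was G17A alone. A sequencing error at that base, or a counter that allows a mismatch, would move reads between the members of such a pair, so the split of counts within let-7a, let-7c, let-7e and let-7f, and between let-7b and let-7c, is uncertain. Ligation to sequencing adapters also favours some sequences over others, so an order of members is an order of counts.

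The 9 microRNAs came from 12 loci of the RefSeq annotation of the rat build GRCr8, and positions are those of the mature sequence in each microRNA gene. A cluster on chromosome 17 held let-7a (chr17:16320145-16320166, + strand), let-7f (chr17:16320508-16320529, +) and let-7d (chr17:16322273-16322294, +). let-7c (chr7:118683636-118683657, +) and let-7b (chr7:118684044-118684065, +) lay side by side on chromosome 7, where let-7i (chr7:60527935-60527956, − strand) had a locus of its own. let-7f (chrX:24460052-24460073, +) and miR-98 (chrX:24460663-24460684, +) lay together on chromosome X. The remaining loci were those of let-7e (chr1:67350243-67350264, +), a second let-7c (chr11:29688127-29688148, +), a second let-7a (chr8:50805219-50805240, +) and let-7g (chr8:115701026-115701047, +). let-7a, let-7c and let-7f each had 2 loci with the same mature sequence, and their counts hold both.

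The libraries held 1694811 to 9371130 counts in myocardium, 78188 to 331787 in amniotic fluid and 147609 to 581350 in serum. Levels are CPM (counts divided by the library total and multiplied by 1000000) scaled further by the TMM method within a sample type, unless stated otherwise. Of 6 heart muscle microRNAs (miR-1, miR-133, miR-208 and miR-499 among them), the summed level ran from 4079 to 99041 CPM in myocardium, from 0 to 6374 in amniotic fluid and from 1761 to 16250 in serum. The myocardium NC replicate 2 had the lowest heart muscle sum of its tissue, 4079 CPM, together with 14234 CPM of 8 epithelial microRNAs. The myocardium VSD replicate 1 was similar, with the lowest heart muscle sum of its group, 5426 CPM. Its epithelial sum, 15250 CPM, was the highest of any myocardium sample. Myocardium was cut from wax blocks, the 3 sample types were extracted with different kits, and amniotic fluid was sequenced with another library kit and sequencer than myocardium and serum. Sample type and preparation therefore cannot be told apart.

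The family was abundant in all 3 sample types. In the NC group it took 7.26% ± 1.05 (SD, n = 7) of the library counts in myocardium, 12.3% in amniotic fluid with a range of 8.68% to 14.9%, and 6.88% in serum with a range of 5.29% to 8.71%. Its most counted member stood 7th of 661 microRNAs by mean level in NC myocardium (let-7i-5p), 9th of 523 in amniotic fluid (let-7i-5p) and 7th of 518 in serum (let-7c-5p). miR-98-5p was the least counted member in each sample type, at ranks 139, 132 and 185. All members are of the same length, but CPM set side by side between them remain an order of counts, since ligation favours some sequences.

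The make-up of the family differed between the sample types. In NC myocardium, let-7i-5p made up 44.5% ± 3.74 (SD, n = 7) of the family counts, let-7f-5p 25.8% ± 3.66 and let-7g-5p 11.7% ± 1.43. let-7c-5p and let-7a-5p followed with 7.0% and 6.47%, while let-7e-5p, let-7d-5p, let-7b-5p and miR-98-5p stayed at 1.91%, 1.16%, 1.09% and 0.343%. Going down this order in TMM-scaled CPM, the 7 NC samples did not overlap between let-7f-5p and let-7g-5p, between let-7a-5p and let-7e-5p, or between let-7b-5p and miR-98-5p, and the other neighbours overlapped. let-7i-5p was above let-7f-5p within each of the 7 samples, whereas let-7c-5p was above let-7a-5p in 4 of 7.

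In NC amniotic fluid 3 members shared the lead. let-7i-5p made up 23.9% ± 2.45 (SD, n = 7) of the family, let-7f-5p 22.9% ± 3.85 and let-7a-5p 21.9% ± 1.71, and their ranges overlapped. let-7c-5p took 14.2%, let-7b-5p 8.83% and let-7e-5p 5.26%, and let-7g-5p, the third member of myocardium, took 1.11%. In NC serum, let-7c-5p with 36.0% ± 5.15 and let-7b-5p with 33.1% ± 2.78 were ahead of let-7i-5p with 19.1% ± 5.65 (SD, n = 7). The order of let-7c-5p over let-7b-5p held in 4 of the 7 serum samples, and let-7i-5p did not overlap with let-7a-5p below it, which took 4.96%. The remaining serum members were let-7f-5p with 3.61%, let-7g-5p with 1.95%, let-7d-5p with 0.949%, let-7e-5p with 0.264% and miR-98-5p with 0.0735%.

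**Figure D1:**
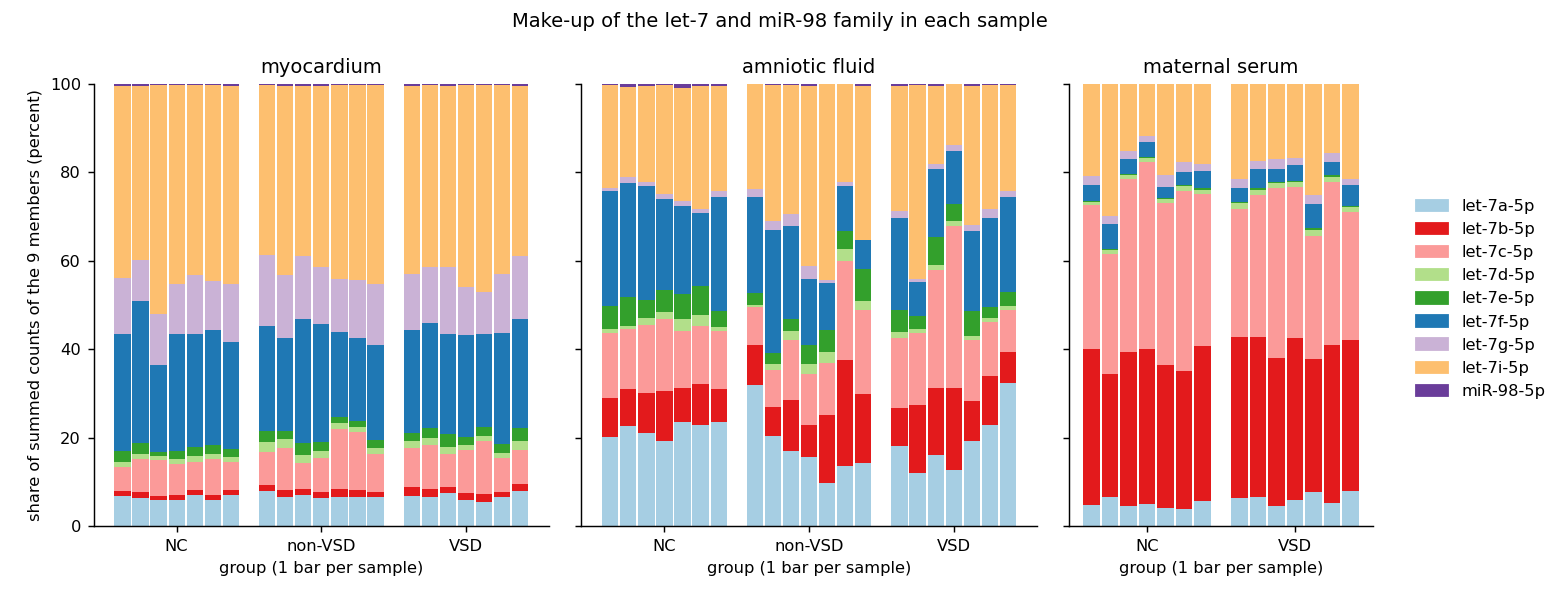
Each bar is a sample, grouped as NC, non-VSD and VSD in myocardium and amniotic fluid and as NC and VSD in maternal serum, and its colours give each member's percent of the summed counts of the 9 members. let-7i-5p is the widest band in myocardium, let-7c-5p and let-7b-5p fill most of the serum bars, and the bars of amniotic fluid differ most from sample to sample in the non-VSD and VSD groups.

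Ratios of members within a sample do not depend on scaling between libraries. For the pair let-7f-5p and let-7a-5p, which share a cluster and differ by G12A, let-7f-5p had a mean of 4.01 counts for each let-7a-5p count in NC myocardium (3.33 to 5.07 over 7 samples). The same ratio was 1.05 in NC amniotic fluid (0.719 to 1.27) and 0.720 in NC serum (0.592 to 0.842). The ranges did not overlap between myocardium and either fluid, and overlapped between the fluids. For let-7c-5p over let-7b-5p the ratio was 6.52 in NC myocardium (5.08 to 8.38), 1.62 in amniotic fluid and 1.09 in serum. For let-7i-5p over let-7g-5p, the order was another: 3.84 in NC myocardium, 22.4 in amniotic fluid and 9.85 in serum.

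**Figure D2:**
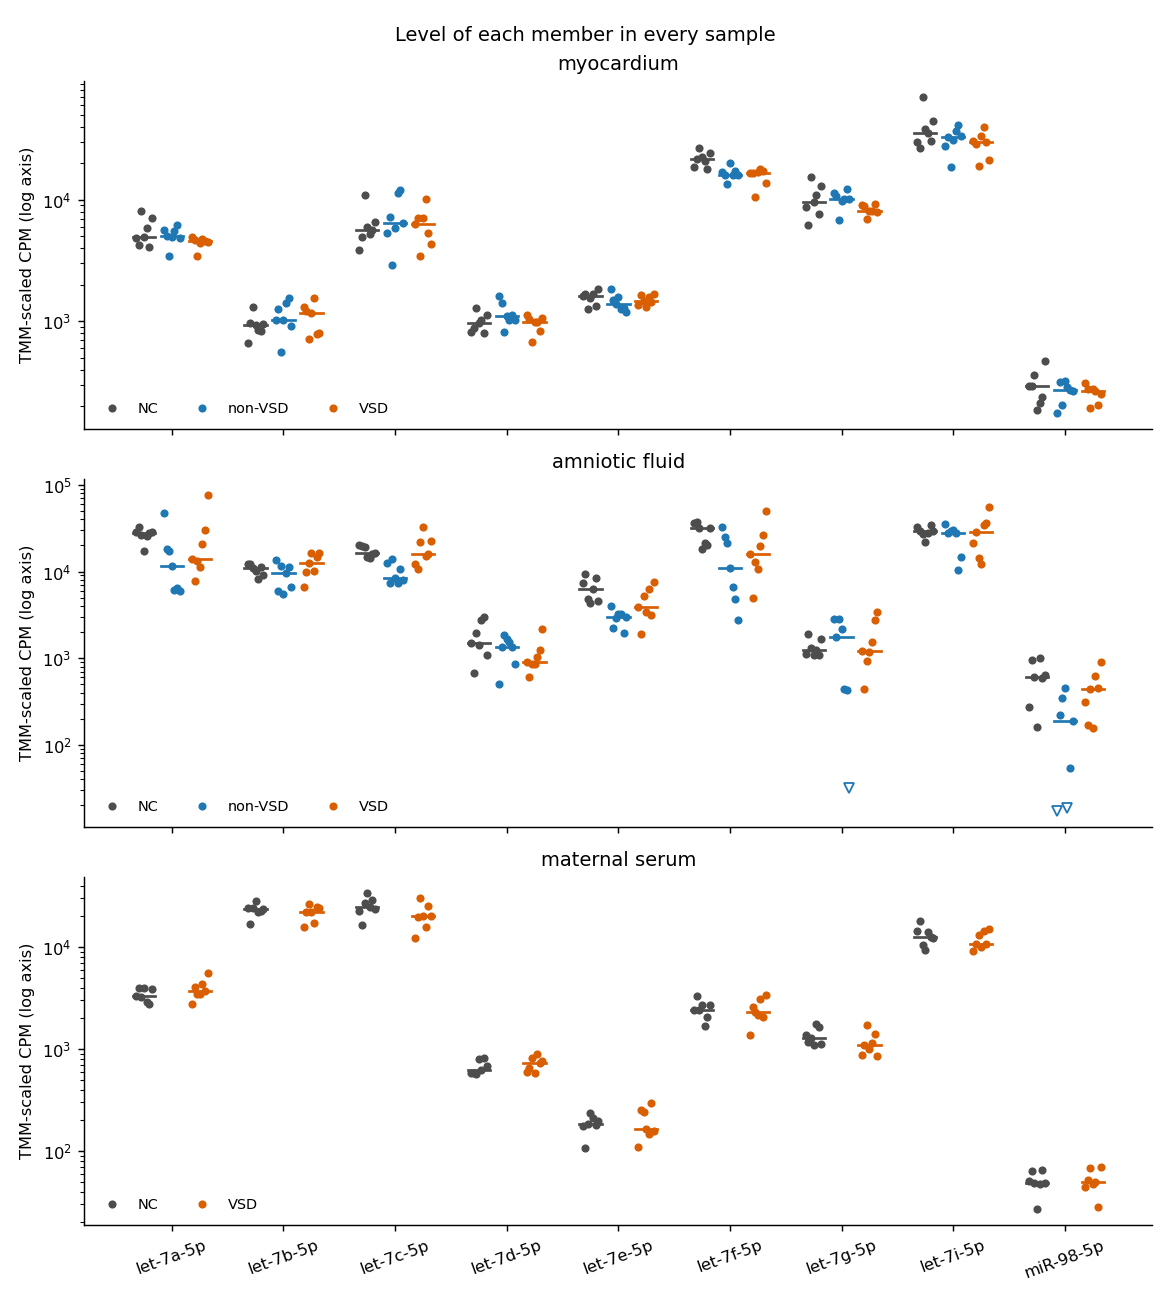
TMM-scaled CPM on a log axis for each of the 9 members in each sample, by group and sample type; points are samples, short lines are group medians, and open triangles are samples with 0 counts drawn at the limit that 3 counts would give. In every panel miR-98-5p is lowest, and the median of let-7f-5p is 21684 CPM in NC myocardium and 2438 CPM in NC serum.

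The NC myocardium and the NC serum, which share a library kit and a sequencer, were compared directly, in edgeR's quasi-likelihood test over 382 microRNAs listed in both with Benjamini-Hochberg adjustment. Of the 9 members, 5 were higher in myocardium (let-7e-5p, let-7f-5p, let-7g-5p, let-7i-5p and miR-98-5p) and 2 were lower (let-7b-5p and let-7c-5p). Over all microRNAs tested, 45.5% were higher and 32.5% lower, so that the share of members called was near the background. As bulk samples were measured, fewer cells of a type and less RNA per cell cannot be told apart in this or any later comparison.

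let-7b-5p differed most. It had 570 to 1200 CPM by library size in NC myocardium with a median of 760, and 17089 to 30660 with a median of 23217 in NC serum. The 2 groups lay far apart, with a log2 fold change of −5.10 (SE 0.18, edgeR adjusted p = 1.71e-13) for myocardium over serum. let-7c-5p, its chromosome 7 neighbour, had 3333 to 6881 CPM with a median of 5224 in myocardium and 16940 to 36648 with a median of 22864 in serum, and a log2 fold change of −2.52 (SE 0.21, edgeR adjusted p = 8.94e-09).

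let-7f-5p went the other way, with 16052 to 26708 CPM by library size and a median of 16900 in NC myocardium against 1320 to 3447 with a median of 2555 in NC serum. Its log2 fold change was 2.67 (SE 0.18, edgeR adjusted p = 4.39e-10). let-7e-5p, which shares its transcript with miR-99b and miR-125a, had a log2 fold change of 2.65 (SE 0.20), let-7g-5p one of 2.43 (SE 0.21), miR-98-5p one of 2.04 (SE 0.28) and let-7i-5p one of 1.10 (SE 0.22), all with edgeR adjusted p of 0.000168 or less. The NC samples of the 2 sample types did not overlap in library-size CPM for any of these 7 members, as for 58.4% of all microRNAs tested.

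let-7a-5p and let-7d-5p, which share the chromosome 17 cluster with let-7f, did not pass the test. let-7a-5p had 3643 to 5722 CPM by library size in NC myocardium and 2230 to 4317 in NC serum, and let-7d-5p had 713 to 1080 and 481 to 859. Both pairs of ranges overlapped, and the log2 fold changes were 0.24 (SE 0.17, edgeR adjusted p = 0.200) and 0.11 (SE 0.17, edgeR adjusted p = 0.572). The call for let-7a-5p depended on the processing. By library size alone, which moved the median log2 fold change of all microRNAs from 0.57 to 0.86, it was 0.46 with an adjusted p of 0.0243, and it was 0.47 by DESeq2 (adjusted p = 0.0150) and 0.48 by limma (adjusted p = 0.0390). With no filter on low counts it was 0.70 (adjusted p = 0.00675) and with at least 10 counts in each sample 0.997 (adjusted p = 5.82e-06), while it was −0.01 without myocardium NC replicate 3. DESeq2 called all 9 members and limma 8. Of all 382 microRNAs, DESeq2 called 191 higher and 120 lower in myocardium, and limma 188 higher and 119 lower.

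**Figure D3:**
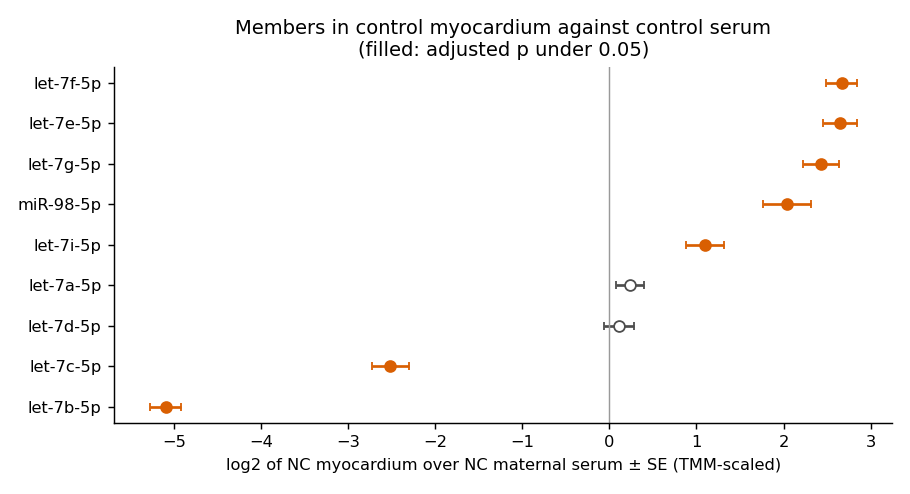
Log2 fold change of each member, NC myocardium over NC maternal serum, with bars of 1 standard error; filled points have an adjusted p under 0.05. let-7b-5p at −5.10 and let-7c-5p at −2.52 lie left of 0, 5 members lie between 1.10 and 2.67, and let-7a-5p and let-7d-5p lie near 0.

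In myocardium, the comparisons of the VSD and the non-VSD group with NC share the 7 NC samples. The family took 7.79% of the library in the VSD group (5.17% to 10.1%) and 7.66% in the non-VSD group (5.77% to 9.28%) against 7.26% in NC (6.03% to 8.56%), with overlapping ranges. On the log2 scale the shares differed from NC by 0.07 in both groups, and with TMM scaling the family total differed by −0.34 and −0.20, so that no direction holds for it. No member passed an adjusted p of 0.05 by edgeR's quasi-likelihood test in the VSD group, where 0.426% of 469 microRNAs did. Neither did a member in the non-VSD group, where 0.219% of 456 did. No member met the study's DE-microRNA threshold (unadjusted p under 0.05 with a fold change no smaller than 2 or no larger than 0.5), which 6.82% of microRNAs met in the VSD and 4.17% in the non-VSD group. In both comparisons 1 of 9 members, let-7f-5p, had an unadjusted p under 0.05, as had 90 of 469 microRNAs in the VSD and 80 of 456 in the non-VSD group. By DESeq2 this same member had an adjusted p under 0.05 in both comparisons, and by limma none did. Of 469 microRNAs in the VSD group, DESeq2 called 16 up and 30 down, and limma 45 up and 3 down. Of 456 in the non-VSD group, DESeq2 called 22 up and 25 down, and limma 26 up and 1 down. The median log2 fold change was −0.20 over the members and −0.05 over all microRNAs in the VSD group, and −0.09 and −0.07 in the non-VSD group.

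let-7f-5p, the second member of the myocardium, had the lowest p of the family. Its levels were 17840 to 26816 CPM in NC with a median of 21684, 13463 to 20240 in the non-VSD group with a median of 16019, and 10518 to 18023 in the VSD group with a median of 16710. The highest VSD sample lay just above the lowest NC sample, so that the groups overlapped by their edges. The log2 fold change was −0.47 in the VSD group (SE 0.15, unadjusted p = 0.00725, edgeR adjusted p = 0.0997) and −0.36 in the non-VSD group (SE 0.14, unadjusted p = 0.0217, edgeR adjusted p = 0.173). By DESeq2 the values were −0.46 (adjusted p = 0.0145) and −0.38 (adjusted p = 0.0267). By library size alone the VSD value shrank to −0.05, a scaling that moved the median over all microRNAs from −0.05 to 0.32. Without NC replicate 2, edgeR's adjusted p for the VSD group was 0.0485.

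The other leading members were not separated from NC. let-7i-5p, the member with the most counts in the heart samples, had 26613 to 70407 CPM in NC with a median of 35191, 18591 to 41122 in the non-VSD group and 19073 to 39851 in the VSD group. NC replicate 3 held the highest value, and the other NC samples reached 44821 CPM. Its log2 fold change in the VSD group was −0.44 (SE 0.23, edgeR adjusted p = 0.275), and it was 0.05 by library size. let-7a-5p and let-7g-5p, at −0.33 (SE 0.17) and −0.30 (SE 0.19), likewise went to 0.13 and 0.17 by library size, so that no direction holds for these 3. let-7b-5p was at 0.22 (SE 0.21), and let-7c-5p, let-7d-5p, let-7e-5p and miR-98-5p were within 1 SE of 0. In the non-VSD group the members past 1 SE were let-7b-5p at 0.28 (SE 0.22), let-7d-5p at 0.27 (SE 0.18) and let-7i-5p at −0.29 (SE 0.23) beside let-7f-5p. No member was without overlap between groups in either comparison, against 0.64% and 1.32% of all microRNAs.

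As shares of the family, which need no scaling and sum to 100% in a sample, 7 of 9 members had a larger mean in both DMO groups than in NC, and let-7i-5p and let-7f-5p had a smaller one. let-7b-5p was 1.09% of the family in NC (0.946% to 1.44%), 1.45% in the non-VSD group (1.16% to 1.68%) and 1.58% in the VSD group (1.12% to 1.83%). let-7c-5p was 7.0%, 9.40% and 9.04%, and let-7d-5p 1.16%, 1.58% and 1.44%, in the same order. let-7i-5p was 44.5%, 41.9% and 42.6%, and let-7f-5p 25.8%, 22.6% and 23.4%. All these ranges overlapped, and shares were not tested. Other cell types' microRNAs moved with the groups: 4 red blood cell microRNAs summed to 2651 to 91133 CPM in NC with a median of 33788, to 3255 to 33984 among non-VSD samples with a median of 7003, and to 3435 to 25158 among VSD samples with a median of 7522. The heart muscle sum had medians of 37451, 41715 and 20214 CPM. The part of these in the members' values was not tested.

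Between the VSD and non-VSD myocardium, which addresses the septal defect within DMO-exposed fetuses, no member was called by edgeR, DESeq2 or limma and none had an unadjusted p under 0.05. Of all 483 microRNAs, 0% had an edgeR adjusted p under 0.05 (56 had an unadjusted p under 0.05, and DESeq2 and limma also called 0), 5.18% met the DE-microRNA threshold and 0% were without overlap. The members' log2 fold changes ran from −0.30 to 0.07 with a median of −0.12, which was 0.05 by library size as the median of all microRNAs went from 0.02 to 0.19, and those past 1 SE were let-7g-5p at −0.30 (SE 0.18), let-7d-5p at −0.28 (SE 0.17) and let-7a-5p at −0.19 (SE 0.17).

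**Figure D4:**
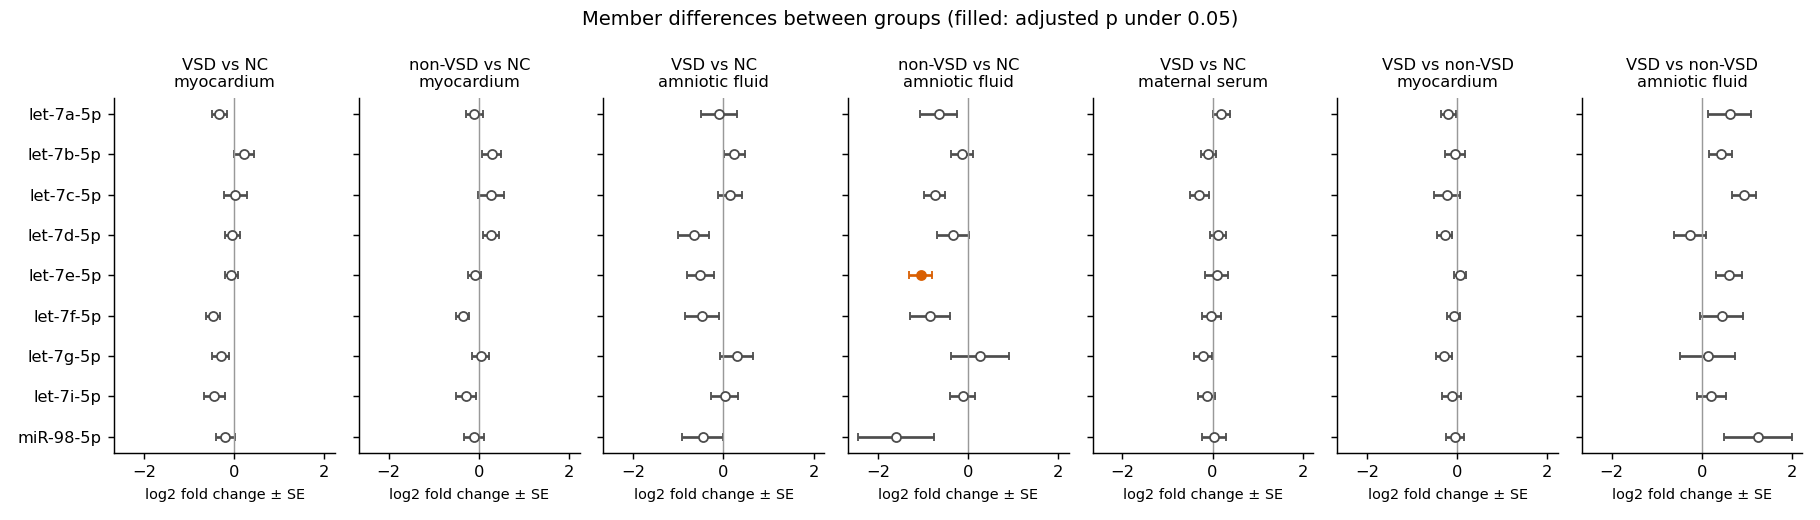
Log2 fold change of each member with bars of 1 standard error in the 7 group comparisons of myocardium, amniotic fluid and maternal serum; filled points have an adjusted p under 0.05. The only filled point is let-7e-5p at −1.04 in the non-VSD amniotic fluid, and all points of myocardium and serum lie within 0.5 of 0.

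In amniotic fluid 1 of 9 members, let-7e-5p, was called in the non-VSD group against NC. The members' median log2 fold change was −0.64, where that of all 242 microRNAs was 0.11, and 5 members were past 1 SE, all of them below 0. let-7e-5p fell, with an edgeR adjusted p under 0.05, and let-7c-5p had ranges without overlap but did not pass the adjusted test. The family's share of the library was 8.38% in the non-VSD group (4.03% to 14.8%), 10.8% in the VSD group (6.62% to 20.6%) and 12.3% in NC (8.68% to 14.9%), and these ranges overlapped. The shares differed from NC by −0.66 (SD between replicates 0.52) and −0.27 (SD 0.46) on the log2 scale, and the 2 comparisons share the NC samples.

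let-7e-5p had 4335 to 9439 CPM in NC amniotic fluid with a median of 6252, and 1944 to 3994 in the non-VSD group with a median of 2976. The groups did not overlap. The VSD group, at 1899 to 7535 CPM with a median of 3878, lay across both. let-7e-5p fell by 1.04 on the log2 scale in the non-VSD group (SE 0.26, edgeR adjusted p = 0.0272), and in this fit it was the member that met both thresholds. The study, by its own tests, listed let-7e-5p and miR-98-5p as downregulated in this group. At an adjusted p under 0.05, 4.96% of all microRNAs were called, and 12.4% met the DE-microRNA threshold. The adjusted p of let-7e-5p was 0.0688 with no filter on low counts and 0.0535 by limma. When NC replicate 1, 2 or 3 or non-VSD replicate 2, 3 or 5 was left out, it was over 0.05 and at most 0.0752, and the log2 fold change stayed between −1.17 and −0.97.

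let-7c-5p had 14178 to 20442 CPM in NC with a median of 16168, and 7380 to 13814 in the non-VSD group with a median of 8421. These groups did not overlap either, as in 2.07% of all microRNAs, against 2 of 9 members. Its log2 fold change was −0.74 (SE 0.23, unadjusted p = 0.00540, edgeR adjusted p = 0.0687), and DESeq2 gave −0.67 with an adjusted p of 0.0402. let-7b-5p, which differs from it by a single base, had 5510 to 13646 CPM in the non-VSD group against 8258 to 12364 in NC, within 1 SE of 0. The ratio of let-7c-5p to let-7b-5p was 1.62 in NC (1.41 to 1.77) and 1.11 in the non-VSD group (0.763 to 1.53), with overlap, and 1.52 in the VSD group.

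**Figure D5:**
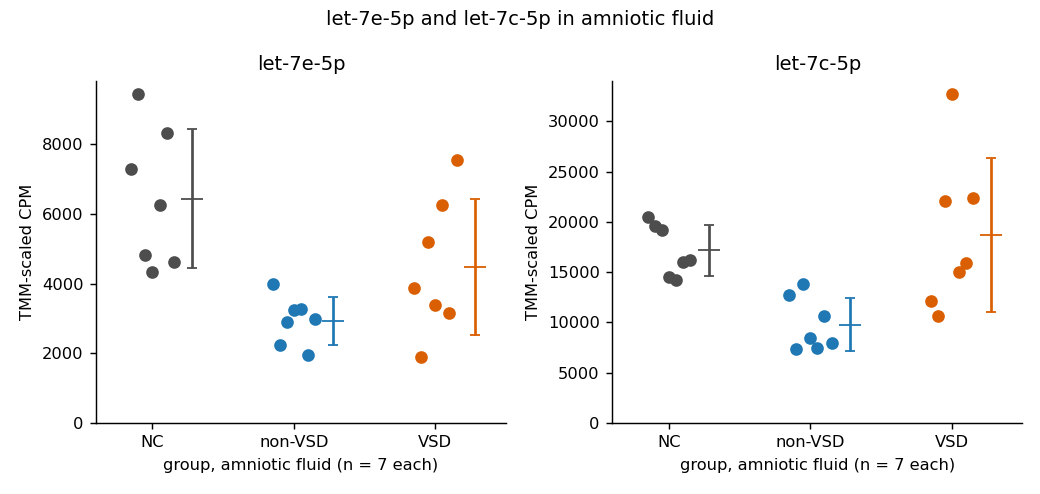
TMM-scaled CPM of let-7e-5p and let-7c-5p in each amniotic fluid sample, with the group mean and SD (n = 7). For both members the 7 non-VSD samples sit below the 7 NC samples, and the VSD samples reach from the non-VSD range into or above the NC range.

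The let-7a-5p and let-7f-5p levels of amniotic fluid varied widely in the DMO groups. let-7a-5p ran from 17052 to 32657 CPM in NC, from 5918 to 47194 in the non-VSD group and from 7729 to 76434 in the VSD group. The highest values were those of non-VSD replicate 1 and VSD replicate 7. Those libraries also had the highest sums of 4 white blood cell microRNAs in their groups, 26719 and 32420 CPM, where NC ran from 532 to 6606. let-7f-5p ran from 2723 to 32377 CPM in the non-VSD group against 18322 to 37253 in NC. The log2 fold changes of let-7a-5p and let-7f-5p in the non-VSD group were −0.64 (SE 0.41, edgeR adjusted p = 0.407) and −0.84 (SE 0.45, edgeR adjusted p = 0.315). Without non-VSD replicate 1, let-7a-5p was at −1.23 with an adjusted p of 0.0310, let-7c-5p at −0.83 with 0.0454, and 3 members were called in place of 1. How many of all microRNAs were called in that fit was not counted, so the 3 members have no background share.

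Red blood cell microRNAs summed to 15041 to 34832 CPM in NC amniotic fluid, 25426 to 86204 in the non-VSD group and 18134 to 143542 in the VSD group, and all 4 were listed and passed the filter. Epithelial microRNAs summed to 89501 to 144406 CPM in NC, 53472 to 121495 in the non-VSD group and 56925 to 152276 in the VSD group. Their part in the family's values was not tested.

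let-7g-5p and miR-98-5p were the members with 0 counts in some amniotic fluid samples, all of the non-VSD group. let-7g-5p had 0 of 94282 counts in non-VSD replicate 7, which allows up to 31.8 CPM, and 435 to 2826 CPM in the other samples of that group. miR-98-5p had 0 of 174809 counts in non-VSD replicate 1 and 0 of 159557 in replicate 5, which allow up to 17.2 and 18.8 CPM. These limits cover counting error only. miR-98-5p had 159 to 999 CPM in NC and up to 452 in the non-VSD group, and a log2 fold change of −1.60 (SE 0.84, edgeR adjusted p = 0.313).

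In the VSD amniotic fluid no member was called against NC by edgeR, DESeq2 or limma, and none had an unadjusted p under 0.05. Of all 245 microRNAs, 0% had an edgeR adjusted p under 0.05 (33 had an unadjusted p under 0.05, DESeq2 called 0 and limma 1), 6.94% met the DE-microRNA threshold and 0% were without overlap. let-7d-5p had 678 to 2975 CPM in NC and 613 to 2199 in the VSD group, and a log2 fold change of −0.66 (SE 0.34, edgeR adjusted p = 0.424). let-7e-5p was at −0.51 (SE 0.29), let-7f-5p at −0.47 (SE 0.38) and let-7b-5p at 0.24 (SE 0.23), and the other 5 were within 1 SE of 0. The members' median log2 fold change was −0.10, where that of all microRNAs was −0.06. These medians were −0.54 and −0.26 by limma, and 0.02 and 0.01 by DESeq2. Without VSD replicates 4 and 7, left out after seeing the data, they were −0.56 and −0.03. VSD replicate 4 had an unusual make-up, with let-7c-5p at 36.8% of the family and 42489 CPM of the liver microRNAs miR-122-5p and miR-192-5p, against 4499 to 12560 in the other VSD samples.

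The direct comparison of VSD with non-VSD amniotic fluid gave the lowest p to let-7c-5p, at 10649 to 32722 CPM with a median of 15934 in the VSD group against 7380 to 13814 in the non-VSD group. The ranges overlapped. Its log2 fold change was 0.94 (SE 0.26, unadjusted p = 0.00129, edgeR adjusted p = 0.0785), and DESeq2 gave an adjusted p of 0.0265. Without VSD replicates 4 and 7, left out after seeing the data, it was 0.64 with an adjusted p of 0.553. let-7e-5p was at 0.61 (SE 0.28, unadjusted p = 0.0405, edgeR adjusted p = 0.382). miR-98-5p at 1.26 (SE 0.76), let-7a-5p at 0.62 (SE 0.47) and let-7b-5p at 0.42 (SE 0.26) were also past 1 SE, and the members' median was 0.44 against −0.04 over all microRNAs. Without VSD replicates 4 and 7 that median was 0.12 against −0.05, with 7 members above 0 and 2 below, and let-7a-5p was at 0.08 (SE 0.45). Of all 273 microRNAs, 0% had an edgeR adjusted p under 0.05 (29 had an unadjusted p under 0.05, DESeq2 called 6 and limma 0), 3.3% met the DE-microRNA threshold and 0% were without overlap.

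In maternal serum the members were close between the 7 NC and 7 VSD dams. The family took 6.88% of counts in NC and 6.46% in the VSD group (4.31% to 9.50%). let-7c-5p had 16410 to 33815 CPM in NC and 12371 to 30176 in the VSD group, and let-7b-5p 16815 to 28290 and 15667 to 26405. The groups overlapped for all 9 members. No member was called by edgeR, DESeq2 or limma and none had an unadjusted p under 0.05, where 0% of 219 microRNAs had an edgeR adjusted p under 0.05 (30 had an unadjusted p under 0.05, DESeq2 called 4 and limma 0), 4.57% met the DE-microRNA threshold and 0.457% were without overlap. Members past 1 SE were let-7c-5p at −0.30 (SE 0.21), let-7g-5p at −0.22 (SE 0.20) and let-7a-5p at 0.20 (SE 0.18), with edgeR adjusted p of 0.543 to 0.662.

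Whether the VSD difference of a member differed between sample types was tested as an interaction. None of the 9 passed an edgeR adjusted p of 0.05 for serum against myocardium, where 2.05% of 390 microRNAs did, or for amniotic fluid against myocardium, where 5.24% of 382 did. The lowest p was that of let-7b-5p for serum minus myocardium, at −0.61 on the log2 scale (SE 0.26, unadjusted p = 0.0228, edgeR adjusted p = 0.202). No other member had an unadjusted p under 0.05 in either test. The edgeR interaction scaled the samples of both types together. In edgeR's separate fits, let-7b-5p was at −0.09 in serum and 0.22 in myocardium. A permutation of the group labels within each sample type (100000 permutations, two-sided, 18 tests) used mean log2 CPM scaled within each type. Its differences were not those of the edgeR interaction. For serum minus myocardium let-7b-5p was then at −0.29 with an unadjusted p of 0.226. let-7a-5p was at 0.47 with an unadjusted p of 0.0319, where the edgeR interaction had 0.24 with an adjusted p of 0.678.

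The opposite strands of the let-7 hairpins, the passenger arms, are usually degraded. Of all counts of both arms, the listed arms made up 0.525% in myocardium (12 arms), 0.854% in amniotic fluid (10 arms) and 2.44% in serum (12 arms), with the identical let-7a-1-3p and let-7c-2-3p counted as 1 arm by leaving out let-7c-2-3p. let-7d was the exception. let-7d-3p held 35569 counts against 145869 of let-7d-5p in myocardium (19.6% of both), 2773 against 4784 in amniotic fluid (36.7%) and 7923 against 3380 in serum (70.1%). In NC samples the ratio of let-7d-3p to let-7d-5p was 0.267 in myocardium (0.125 to 0.387), 0.749 in amniotic fluid (0.288 to 1.79) and 2.45 in serum (1.09 to 3.25), and the ranges of myocardium and serum did not overlap. let-7d-3p was thus the more counted arm in serum, and the log2 fold change of NC myocardium over NC serum was −3.08 for let-7d-3p beside 0.11 for let-7d-5p. Of 9 arms tested in that comparison, 4 were higher in myocardium and 2 lower by edgeR's adjusted p, where 45.5% and 32.5% of all microRNAs were, and let-7a-1-3p and let-7c-2-3p are both among the 4. In the comparisons of NC, non-VSD and VSD samples, 11 or 12 arms were tested in myocardium. In amniotic fluid and in serum let-7d-3p was the only arm tested. None of these was called by edgeR or limma. let-7f-2-3p in the non-VSD myocardium had an unadjusted p under 0.05 by edgeR and was called by DESeq2. Of all 456 microRNAs of that comparison, 80 had an unadjusted p under 0.05 by edgeR, and DESeq2 called 22 up and 25 down. let-7a-1-3p and let-7c-2-3p have the same mature sequence and had equal counts in 14 of 21 myocardium samples and in 14 of 14 serum samples, so that they cannot be told apart.

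Other microRNAs transcribed with let-7 genes, miR-99a, miR-99b, miR-100, miR-125a and miR-125b, were all tested. In NC myocardium over NC serum, miR-100-5p (6.08), miR-99b-5p (3.72) and miR-99a-5p (3.65) were higher by their log2 fold changes, and miR-125a-5p (−3.45) and miR-125b-5p (−1.62) were lower, all 5 with an edgeR adjusted p under 0.05. Over all microRNAs 45.5% were higher and 32.5% lower. Of the microRNAs transcribed with let-7e-5p (2.65), miR-99b-5p was higher and miR-125a-5p lower in myocardium. None of the 5 was called by edgeR in a comparison of NC, non-VSD and VSD samples, with 1 at an unadjusted p under 0.05 in the VSD myocardium, 2 in the non-VSD myocardium, 1 in the non-VSD amniotic fluid and 1 in serum. DESeq2 called 1 (miR-125a-5p) and limma 3 in the VSD myocardium, and limma called 2 in the non-VSD myocardium. In the interaction of serum minus myocardium, miR-99a-5p was at −1.34 (SE 0.28, edgeR adjusted p = 0.00632).

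Within a sample type, members varied together to different degrees, given here as a description over samples that share a library preparation and a scaling. The median Pearson r over 36 pairs of members was 0.58 in myocardium (n = 21), 0.27 in amniotic fluid (n = 21) and 0.21 in serum (n = 14), on log2 CPM. let-7b-5p with let-7c-5p, neighbours on chromosome 7, had an r of 0.93 in myocardium, 0.76 in amniotic fluid and 0.92 in serum. Of the chromosome 17 cluster, let-7a-5p with let-7f-5p had 0.71, 0.92 and 0.92, and let-7a-5p with let-7d-5p 0.76, 0.12 and 0.29. let-7f-5p with miR-98-5p, side by side on chromosome X, had 0.47, 0.19 and 0.27. The highest r in myocardium, 0.94, was that of let-7a-5p with let-7g-5p, which share no cluster and had −0.44 in serum. Other microRNAs were compared with the family as a whole, taken as the unweighted mean of the members' log2 CPM and not as their sum. Each member thus weighed the same, and group means were subtracted first, as for the pairs above. Among 173 other microRNAs with enough counts in all 3 sample types, miR-126a-3p had the highest mean r with this family mean. Its r was 0.71, 0.74 and 0.33 in myocardium, amniotic fluid and serum. Next came miR-15b-5p (0.46, 0.80 and 0.50), miR-30a-3p (0.79, 0.37 and 0.43), miR-103-3p (0.33, 0.80 and 0.46) and miR-7a-5p (0.16, 0.70 and 0.72).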

How the data were processed

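Small RNA libraries were made from myocardium and maternal serum with the TruSeq kit and from amniotic fluid with the QIAseq kit, and were run on different Illumina sequencers. The authors converted the reads with bcl2fastq 2.19, filtered them with the FASTX-Toolkit and deposited a count for each mature microRNA and sample. The QIAseq kit adds molecular identifiers. Whether they were used, and which aligner, annotation and build, is not given in the sources used here. The authors tested with DESeq and limma; their comparison columns (fold changes and p-values), group means and 70 normalized per-sample columns were not used. The 2 amniotic fluid tables listed 493 and 507 microRNAs and were joined on name (477 shared), with a microRNA absent from a table taken as 0. Groups came from the sample labels.

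Counts were analysed with edgeR 4.0.16 in R 4.3.3: filterByExpr (minimum count 10, minimum total 15), TMM scaling, and the quasi-likelihood test with Benjamini-Hochberg adjustment over all microRNAs tested. A DMO group against NC was fitted on those 14 samples, VSD against non-VSD on all 3 groups of a tissue. TMM-scaled CPM were computed over all samples of a tissue (prior count 2 for log2 values). No member was filtered out of any comparison. All 9 members are named throughout, passenger arms and cluster partners by counts and by calls or largest counts, and the 5 microRNAs most like the family by mean r. Members, lists and marker lists were chosen with earlier results of these data known. A log2 fold change within 1 SE of 0 is given no direction. DESeq2 1.42.0, limma 3.58.1 on log2(CPM + 1), library-size scaling, other filters, a replicate block and leaving out replicates were alternatives. The fitting code was tested on simulated data. In the smallest libraries, 0 counts allow up to 1.77 CPM in myocardium, 38.4 in amniotic fluid and 20.3 in serum (3 counts). No 2 replicates agreed within sampling noise (lowest chi-square per degree of freedom 10.7). Figures were drawn with matplotlib 3.10.9.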

Additional observations from a re-analysis of the deposited data

Results flagged for a closer look

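Of 152 groups of 7 values examined (each member's CPM and share of the family, and the family's share of the library), 10 had an extreme sample whose gap to the next exceeded Dixon's 95% critical value for 7 samples. Chance flags about 1 in 20 groups, or 7.6 of 152.

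In myocardium, NC replicate 3 stood apart for let-7c-5p at 10919 CPM (the others 3835 to 6515), for let-7i-5p at 70407 CPM (26613 to 44821) and for let-7e-5p at 0.930% of the family (1.83% to 2.47%). VSD replicate 3 was lowest for let-7a-5p, at 3452 CPM (4386 to 4951).

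In amniotic fluid, VSD replicate 7 was highest for the family's share of the library, 20.6% (6.62% to 12.2%), for let-7a-5p at 76434 CPM (7729 to 30024) and for let-7d-5p at 2199 CPM (613 to 1233). VSD replicate 1 had a let-7d-5p share of the family of 1.19% (0.934% to 1.03%). Non-VSD replicate 1 had 47194 CPM of let-7a-5p (5918 to 18247).

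In maternal serum, VSD replicate 6 had a miR-98-5p share of the family of 0.0408% (0.0793% to 0.104%).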

How the results depend on the processing

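Beside the tests reported, library-size scaling, no filter, a minimum of 10 counts in all samples, DESeq2, limma on log2(CPM + 1), another set of groups in the fit and the replicate number as a block were tried. The tallies that follow also hold the fits without libraries left out after seeing the data and the permutation of the interaction. For the family's share they also hold its median and its TMM-scaled total. Of counts and shares so recomputed, 107 kept their value within 1.5 times or 1 SD and 17 moved. Of member fold changes, 258 kept direction and call, 10 gained a call, 3 lost one and 7 changed sign. Where results moved, the cause was not tested.

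The number of members called in myocardium went from 0 to 1 by DESeq2 in the VSD and in the non-VSD group. Of all microRNAs, DESeq2 called 16 up and 30 down of 469 in the VSD group. In the non-VSD group it called 22 up and 25 down of 456. In the VSD group let-7a-5p, let-7g-5p and let-7i-5p changed sign to 0.13, 0.17 and 0.050 by library size and to 0.12, 0.17 and 0.0072 by limma. With the TMM-scaled family total in place of its share of the library, the family differed from NC by −0.34 in the VSD and −0.20 in the non-VSD group on the log2 scale. let-7i-5p in the interaction of amniotic fluid minus myocardium changed sign to −0.10 by library size, which moved the median of all microRNAs from −0.11 to −0.57. Library size also moved that median from −0.07 to 0.13 for non-VSD against NC myocardium.

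In the non-VSD amniotic fluid, members called went from 1 to 0 with no filter, 0 by limma and 2 by DESeq2. Of all 242 microRNAs there, DESeq2 called 19 up and 10 down, and limma 1 up and 3 down. With no filter 8 were called up and 1 down of 507. Members past the DE-microRNA threshold went from 1 to 2 with no filter, 0 with at least 10 counts in every sample (a filter that drops let-7g-5p and miR-98-5p), 0 by DESeq2, 4 by limma and 2 with all 3 groups in the fit. Over all microRNAs, 21 were up and 9 down past it in the reported fit of 242. With no filter 52 were up and 57 down of 507. With at least 10 counts 17 were up and 3 down of 146, and by DESeq2 23 and 8 of 242. By limma 11 were up and 18 down of 242, and with all 3 groups 13 and 14 of 273. For VSD against non-VSD amniotic fluid, 1 member, let-7c-5p, was called with at least 10 counts in every sample and by DESeq2, and 1 met the DE-microRNA threshold by limma. Of all microRNAs, 3 were called up and 1 down of 133 with that filter, and 4 up and 2 down of 273 by DESeq2. By limma 6 were up and 8 down past the threshold, of 273.

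Replicate numbers did not pair the samples: 0 to 5 of 7 same-numbered pairs correlated above 0.1, and 0 to 2 of 7 samples were closest to their own number. With the numbers as a block, members called in the non-VSD amniotic fluid went to 0 (let-7e-5p −1.03, adjusted p = 0.127) and those past the DE-microRNA threshold to 4. Of all 242 microRNAs there, 1 was called up and 1 down with the block, and 7 were up and 12 down past the threshold. The block changed no other member count.

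Leaving out each replicate in turn, members called ranged from 0 to 1 for VSD against NC myocardium (1 without NC replicate 2), from 0 to 3 for the non-VSD amniotic fluid, and from 0 to 1 for VSD against non-VSD amniotic fluid (1 without VSD replicate 2). Members past the DE-microRNA threshold ranged from 0 to 3 in the non-VSD amniotic fluid (0 without NC replicate 2 or non-VSD replicate 6, 3 without non-VSD replicate 1) and from 0 to 2 for VSD against non-VSD amniotic fluid (2 without non-VSD replicate 1). For NC myocardium against serum, 7 to 8 members were called, and let-7a-5p ranged from −0.012 to 0.43. Calls over all microRNAs were not counted in these fits that leave out 1 replicate. Leaving out myocardium NC replicate 2 and VSD replicate 3, or amniotic fluid VSD replicates 4 and 7, chosen after seeing the data, changed none of the 5 counts of members called. Over all microRNAs, calls in the VSD myocardium went from 1 up and 1 down of 469 to 27 up and 29 down of 474. In the non-VSD myocardium they went from 1 up and 0 down of 456 to 6 up and 13 down of 455. They stayed at 0 for VSD against NC amniotic fluid and VSD against non-VSD myocardium. For VSD against non-VSD amniotic fluid 0 were up and 1 down of 284. In the non-VSD amniotic fluid, let-7g-5p had 0 counts in 1 sample and miR-98-5p in 2, so their values there rest partly on zeros. The part of depth in these zeros was not tested.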
